A study of Homo sapiens with 6 samples.

Results

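Alpha-2-macroglobulin (A2M) and its relatives are 6 genes of the 19775 that the array named and measured. They are A2M, A2ML1, PZP, C3 and CD109, which encode proteins of the thioester family, and the noncoding gene LINC00612, which lies close to A2M on chromosome 12. All 10 probe sets whose annotation named exactly one of these symbols were read on all 6 arrays. The set was put together with results of these arrays known. A2M had the 6th largest rise of all genes in the comparison of the subclones, and the others were added as its relatives and its neighbour. The differences of the 6 genes between the subclones are therefore given as a description, with standard errors and intervals. How many of them passed is counted for the fits over all genes and all probe sets and for their alternatives, and nothing is read from these counts.

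The arrays measured RNA of DLD-1, an established human colon cancer cell line. The 3 DLD-1Δα-Cat samples and the 3 DLD-1α-Cat samples were subclones of that line, all kept for 96 h in a 3-dimensional gel of type I collagen at 1 mg/ml without treatment. The labels do not spell out what Δα-Cat stands for, do not say how either subclone was obtained, and do not say whether the samples of a subclone came from separate cultures. The p-values below therefore cover no more than the spread among these arrays, part of which can be technical. Each subclone is one derivative of the line, so a difference between the subclones cannot be told apart from a difference between any such derivatives.

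Alpha-2-macroglobulin is a large secreted inhibitor of proteases. A protease cleaves its bait region, the inhibitor folds around the enzyme and traps it, and the complex is taken up through the receptor LRP1. The protein also binds growth factors and cytokines. The family it belongs to shares a reactive thioester bond and includes complement C3, which attaches to surfaces when activated, and CD109, a protein anchored in the cell membrane that binds transforming growth factor beta (TGF-β). In blood, A2M comes mainly from the liver, and it is not a standard product of colon epithelium.

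All values are log2 intensities that the authors made with RMA (robust multi-array average), and each difference is the mean of DLD-1Δα-Cat minus that of DLD-1α-Cat. The array medians lay between 6.12 and 6.15, and the number of arrays limits the precision. CTNNA1, which encodes αE-catenin and serves as the check of the labels, was at 11.38, 11.30 and 11.01 in DLD-1Δα-Cat, against 12.73, 12.74 and 12.79 in DLD-1α-Cat (difference -1.52, SE 0.119, limma adjusted p = 0.000838). Of 10 colon epithelium markers, all 10 lay above the median gene level of 7.82 and 0 passed the test. None of the 10 endothelial, 10 fibroblast, 9 leukocyte or 10 hepatocyte markers measured lay above that level. The mean of the endothelial markers, of a cell type that also makes A2M, ranged from 5.44 to 5.54 in DLD-1Δα-Cat and from 5.58 to 5.76 in DLD-1α-Cat, and 0 of the 10 passed. The hepatocyte mean ranged from 5.20 to 5.31 in DLD-1Δα-Cat and from 5.12 to 5.54 in DLD-1α-Cat, and 0 markers passed. The fibroblast mean ranged from 4.50 to 4.58 in DLD-1Δα-Cat and from 4.44 to 4.78 in DLD-1α-Cat, and 0 markers passed. The leukocyte mean ranged from 4.82 to 4.92 in DLD-1Δα-Cat and from 4.97 to 5.08 in DLD-1α-Cat. Of its markers LYZ was higher in DLD-1Δα-Cat on its brighter probe set (1.54, limma adjusted p = 0.0167), while its other probe set differed by -0.25. The LYZ call held in only 3 of the 6 fits without one array. It was lost without replicate 1 or 2 of DLD-1Δα-Cat (limma adjusted p = 0.0572 and 0.0588). It was also lost without replicate 3 of DLD-1α-Cat (limma adjusted p = 0.0755). CD14 was lower in DLD-1Δα-Cat (-1.17, limma adjusted p = 0.00517). A sign of RNA quality, the β-actin control signal at the 3' end over that at the 5' end, gave log2 ratios of 5.16, 5.38 and 5.07 in DLD-1Δα-Cat, against 4.82, 4.89 and 4.36 in DLD-1α-Cat. These arrays did not overlap. The same ratio for GAPDH was 0.69, 0.82 and 0.74 in DLD-1Δα-Cat, against 0.51, 0.79 and 0.67 in DLD-1α-Cat, and there the groups overlapped. The part of the β-actin ratio in the values below was not tested.

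A2M itself separated the subclones by more than any relative did. Its probe set 217757_at stood at 9.19, 9.60 and 9.78 in DLD-1Δα-Cat, against 4.62, 4.73 and 4.28 in DLD-1α-Cat. Every DLD-1Δα-Cat array lay above the median of all probe sets (6.12), and every DLD-1α-Cat array lay below it. DLD-1Δα-Cat averaged 9.52 ± 0.300 and DLD-1α-Cat 4.54 ± 0.236 (SD, n = 3 each). The difference was 4.98 (SE 0.183, 95% interval 4.55 to 5.41), or 31.6-fold on the RMA scale. Values this low cannot be told from background without detection calls, so the fold depends on where the array's floor lies. The difference stayed between 4.85 and 5.15 when any single array was left out.

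The further A2M probe set did not share this difference. Probe set 1558450_at read 5.97, 5.85 and 6.21 in DLD-1Δα-Cat, against 6.41, 6.11 and 6.12 in DLD-1α-Cat. The groups overlapped, and the difference was -0.20 (SE 0.142, 95% interval -0.53 to 0.13). The platform annotation ties 217757_at to the A2M reference mRNA and 1558450_at to an expressed sequence tag, and the probe sequences were not used here. Averaging the 2 probe sets gave a difference of 2.39 for the gene, so the size given for A2M rests on 217757_at. That probe set is the brighter one over all 6 arrays only through DLD-1Δα-Cat: in DLD-1α-Cat it averaged 4.54, against 6.21 for 1558450_at.

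**Figure D1:**
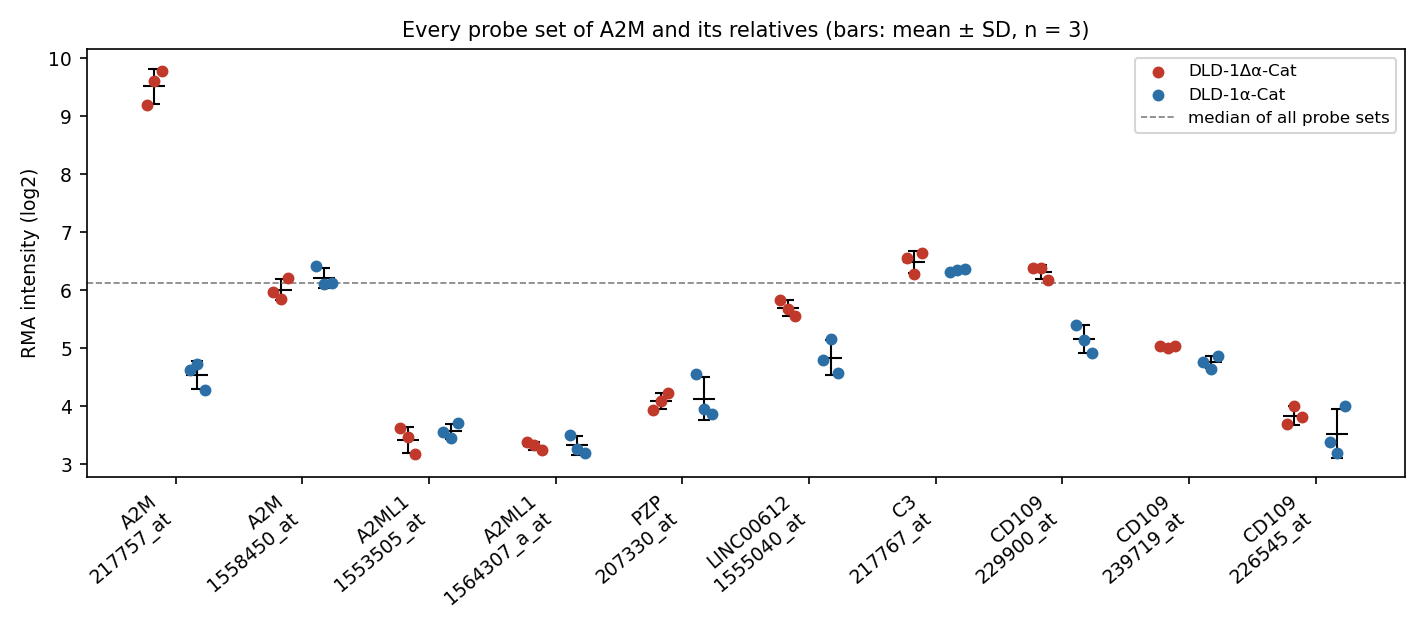
RMA intensity (log2) of each of the 10 probe sets of A2M, A2ML1, PZP, LINC00612, C3 and CD109 on the 3 DLD-1Δα-Cat arrays (left of each pair, red) and the 3 DLD-1α-Cat arrays (right, blue), with mean ± SD as bars and the median of all probe sets (6.12) as a dashed line. A2M 217757_at is near 9.5 in DLD-1Δα-Cat and near 4.5 in DLD-1α-Cat, whereas the PZP, A2ML1 and C3 probe sets overlap between the subclones.

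The relatives of A2M that inhibit proteases did not follow it. A2ML1 is an inhibitor best known from the outer layers of the skin. Its brighter probe set read 3.62, 3.47 and 3.18 in DLD-1Δα-Cat, against 3.55, 3.45 and 3.71 in DLD-1α-Cat (difference -0.14, 95% interval -0.47 to 0.18). Its further probe set differed by -0.0043 (95% interval -0.29 to 0.28). PZP, the pregnancy zone protein, read 3.94, 4.09 and 4.23 in DLD-1Δα-Cat, against 4.56, 3.96 and 3.87 in DLD-1α-Cat (difference -0.047, 95% interval -0.49 to 0.40). All 3 probe sets lay in the dim range on all 6 arrays, at percentiles 10.5 to 22.6 of the mean levels of all probe sets, and their groups overlapped. A change of RNA below the detection limit of the array would not be seen in them.

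C3, the central component of complement, read 6.56, 6.28 and 6.64 in DLD-1Δα-Cat, against 6.31, 6.35 and 6.37 in DLD-1α-Cat. Replicate 2 of DLD-1Δα-Cat lay below all 3 DLD-1α-Cat arrays and the other two above them. The difference was 0.15 (SE 0.118, 95% interval -0.12 to 0.43).

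CD109, which binds TGF-β and dampens its signalling in keratinocytes, was higher on its brightest probe set. Probe set 229900_at read 6.39, 6.39 and 6.18 in DLD-1Δα-Cat, against 5.40, 5.15 and 4.92 in DLD-1α-Cat. The groups did not overlap, and the difference was 1.16 (SE 0.143, 95% interval 0.83 to 1.5), or 2.24-fold on the RMA scale. All its DLD-1α-Cat values lay below the median of all probe sets, so this fold can depend on the array's floor. The other CD109 probe sets differed less. Probe set 239719_at read 5.04, 5.0 and 5.04 in DLD-1Δα-Cat, against 4.77, 4.65 and 4.86 in DLD-1α-Cat (difference 0.27). Probe set 226545_at read 3.69, 4.0 and 3.81 in DLD-1Δα-Cat, against 3.38, 3.20 and 4.0 in DLD-1α-Cat, and there the groups overlapped (difference 0.31, 95% interval -0.19 to 0.80). The mean of the 3 probe sets differed by 0.58.

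LINC00612, a long noncoding RNA, read 5.83, 5.67 and 5.56 in DLD-1Δα-Cat, against 4.79, 5.16 and 4.58 in DLD-1α-Cat. All 6 values lay below the median of all probe sets, and the groups did not overlap. The difference was 0.85 (SE 0.162, 95% interval 0.47 to 1.22), or 1.8-fold on the RMA scale, on its only probe set. The DLD-1α-Cat values lie beside those of A2M that cannot be told from background, so this fold too depends on the array's floor.

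In the limma fit over all 19775 genes, A2M, CD109 and LINC00612 passed the threshold of 0.05 on the adjusted p with a higher level in DLD-1Δα-Cat, and 0 of the 6 genes passed with a lower one. Over all genes 3.84% passed as higher and 1.67% as lower. Since A2M was chosen on this contrast, nothing is read from that count. LINC00612 passed in 1 of the 6 fits without one array, that without replicate 2 of DLD-1α-Cat, while A2M and CD109 passed in all 6, so the other 5 fits gave 2 genes. The arrays did not overlap and were higher in DLD-1Δα-Cat for 3 of the 6 genes, against 14.1% of all genes. In a fit over all 54613 probe sets, 3 of the 10 probe sets passed as higher, where 1.72% of all probe sets did, and 0 as lower, where 0.729% did. The arrays did not overlap and were higher in DLD-1Δα-Cat for 4 of the 10 probe sets, against 10.4% of all probe sets. Ordered by difference, A2M was followed by CD109 and LINC00612. The intervals of CD109 and LINC00612 overlapped, and those of C3, PZP and A2ML1 all held 0.

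The thioester family has further members that were not part of the set. CPAMD8, a relative expressed in the eye, rose: it read 6.64, 6.77 and 6.63 in DLD-1Δα-Cat, against 5.72, 5.87 and 5.35 in DLD-1α-Cat. The groups did not overlap, and the difference was 1.03 (SE 0.146, limma adjusted p = 0.00936). Complement C5 differed by -0.077 (limma adjusted p = 0.709). C4A and C4B are not reported, since no probe set was annotated to only one of them. Thus 1 of the 2 measured genes of this list rose and 0 fell, where 3.84% of all genes rose and 1.67% fell. The median of the list was 0.48, against -0.030 over all genes.

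A2M, A2ML1, PZP and LINC00612 lie close together on chromosome 12, and their neighbours were read by position and not by value. In RefSeq order (assembly GRCh38.p14, used for gene order), the nearest tested gene on one side of A2M is A2M-AS1, a noncoding gene whose end overlaps that of A2M, and LINC00612 comes next. On the other side PZP is the nearest. A2M-AS1 read 8.26, 7.83 and 8.36 in DLD-1Δα-Cat, against 6.23, 7.08 and 5.91 in DLD-1α-Cat. The groups did not overlap, and it rose by 1.74 (SE 0.296, limma adjusted p = 0.0187). That call was lost with the replicate number as a block (limma adjusted p = 0.0546). It was also lost without replicate 1 or 3 of DLD-1Δα-Cat (limma adjusted p = 0.0633 and 0.0684) and without replicate 1 or 3 of DLD-1α-Cat (limma adjusted p = 0.0502 and 0.0702). A2M-AS1 was read with its own probe set, and the strand that each probe set detects was not checked here.

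Of the 17 tested neighbours that were not among the 6 genes, 10 places to either side, 2 rose and 0 fell, where 3.84% of all genes rose and 1.67% fell. They were A2M-AS1 and RIMKLB, which makes N-acetylaspartylglutamate and lies on the far side of A2ML1. RIMKLB read 9.57, 10.37 and 10.62 in DLD-1Δα-Cat, against 6.93, 8.12 and 8.85 in DLD-1α-Cat (difference 2.22, SE 0.481, limma adjusted p = 0.0431). Of the 6 fits without one array it passed in 2, those without replicate 1 or 3 of DLD-1α-Cat (differences 1.70 and 2.66, limma adjusted p = 0.0484 and 0.048), and when every probe set was tested, 2 of its 5 probe sets passed. The one given here did not pass there (limma adjusted p = 0.0671), and the 5 differences ran from 0.081 to 2.37. The lowest limma adjusted p of the 5 was 0.000562. Of the 9 alternatives other than leaving out an array, RIMKLB passed in 7, among them the replicate block (limma adjusted p = 0.00892). Between RIMKLB and LINC00612 stood A2ML1, PHC1, M6PR and KLRG1, whose differences were -0.14, -0.070, -0.11 and -0.49. The median over the 17 neighbours was 0.10. Only 5 of these 17 genes lay above the median gene level of 7.82. A change of RNA below the detection limit would not be seen in the dim ones. KLRG1, a receptor of lymphocytes whose RefSeq span covers A2M, gave limma adjusted p = 0.238.

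**Figure D2:**
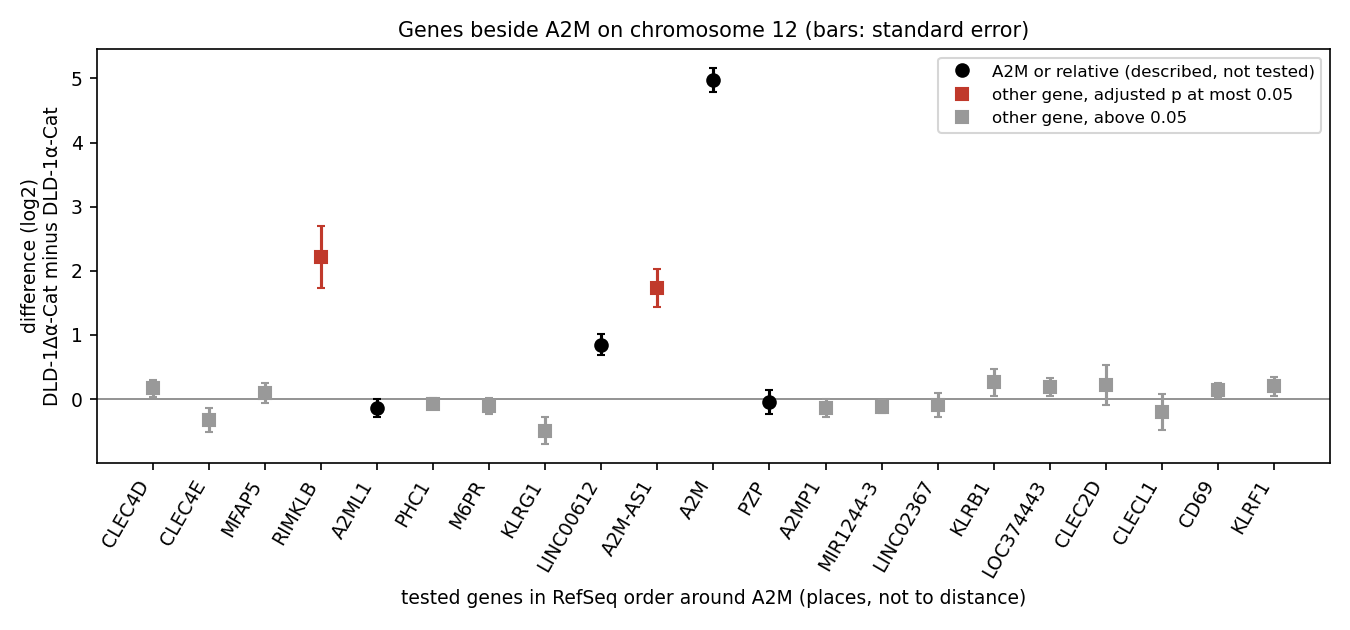
Difference between the subclones (log2, DLD-1Δα-Cat minus DLD-1α-Cat, bars are the standard error) for A2M and the 10 tested genes on each side in RefSeq order; the x axis gives places and not distance. A2M (4.98), A2M-AS1 (1.74) and LINC00612 (0.85) stand side by side, RIMKLB (2.22) stands apart, and PZP on the other side of A2M is at -0.047.

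In the RefSeq promoter windows, the span of LINC00612 reaches into the stretch just before the start of A2M-AS1. Each window runs from 250 bases before to 50 bases after a gene's start (GRCh38.p14), and windows were found for A2ML1, PZP, CD109 and A2M-AS1. There was no window for A2M, C3 or LINC00612, so the counts below say nothing of the A2M promoter. The A2M-AS1 window holds the highest coordinate of LINC00612's span at base 144, with 106 bases between the genes. The strand of LINC00612 was not used here, so whether that base is its start or its end was not checked. The windows of A2M-AS1 and CD109 are printed because those genes differed between the subclones, and that of PZP because this neighbour did not pass. Capitals mark CG dinucleotides.
A2M-AS1 (chr12:9064927-9065226, plus strand): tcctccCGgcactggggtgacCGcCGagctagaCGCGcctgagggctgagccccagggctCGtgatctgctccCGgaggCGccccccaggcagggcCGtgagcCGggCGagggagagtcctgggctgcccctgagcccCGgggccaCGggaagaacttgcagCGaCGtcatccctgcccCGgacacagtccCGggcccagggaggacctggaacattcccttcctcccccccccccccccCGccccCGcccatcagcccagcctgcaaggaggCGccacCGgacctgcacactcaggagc
CD109 (chr6:73695953-73696252, plus strand): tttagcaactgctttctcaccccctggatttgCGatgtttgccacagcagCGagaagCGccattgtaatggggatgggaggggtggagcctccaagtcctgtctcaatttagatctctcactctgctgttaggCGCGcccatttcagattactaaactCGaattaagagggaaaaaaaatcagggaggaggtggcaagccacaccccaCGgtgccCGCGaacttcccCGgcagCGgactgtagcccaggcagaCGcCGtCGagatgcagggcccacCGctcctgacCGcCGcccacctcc
PZP (chr12:9208346-9208645, minus strand): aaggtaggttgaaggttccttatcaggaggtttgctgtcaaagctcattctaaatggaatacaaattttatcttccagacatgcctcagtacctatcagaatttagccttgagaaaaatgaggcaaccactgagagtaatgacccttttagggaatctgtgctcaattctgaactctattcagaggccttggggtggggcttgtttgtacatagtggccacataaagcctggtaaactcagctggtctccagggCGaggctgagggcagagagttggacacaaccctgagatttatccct

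The A2M-AS1 window held 21 CG dinucleotides and 73.7% G and C, and 60.5% of all 35116 windows held fewer CG dinucleotides. The CD109 window held 17 and 57.7% G and C, and 54.0% of all windows held fewer. The PZP window held 1 and 45.3% G and C, and 3.96% held fewer. The A2ML1 windows held 3 and 9 CG dinucleotides (18.2% and 41.6% held fewer), and the median over all windows was 14. Matches were sought on both strands, with overlapping matches counted, to TTCNNNGAA (STAT), TGANTCA (AP-1), GGGNNTTCC (NF-κB) and the TATA box letters TATAAA. These 3 windows held 0 matches to any of them, where 7.66%, 7.71%, 6.58% and 11.5% of all windows held at least one. The first of the A2ML1 windows held TATAAA, beginning 31 bases before the start. A match describes the letters of a window and not the use of a site.

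The receptors of A2M were read next, as a list of 5 genes that also holds their relatives and chaperones. Of these, 1 rose (20.0%, against 3.84% of all genes) and 0 fell (against 1.67%), and the median was 3e-05. LRP1, which takes up the complex of A2M and protease, read 6.78, 7.05 and 7.06 in DLD-1Δα-Cat, against 6.88, 7.08 and 6.98 in DLD-1α-Cat (difference -0.020, limma adjusted p = 0.939). Its chaperone LRPAP1 differed by -0.0091 (limma adjusted p = 0.972) and the chaperone HSPA5, reported as a surface receptor of activated A2M, by 3e-05 (limma adjusted p = 1). The 3 LRPAP1 probe sets had differences from -0.0091 to 0.44 (lowest limma adjusted p = 0.364 when every probe set was tested). LRP2, a relative of LRP1 known as megalin in the kidney and other absorbing epithelia, was the 1 gene of the list that rose. It read 6.54, 6.04 and 6.21 in DLD-1Δα-Cat, against 3.71, 4.62 and 5.23 in DLD-1α-Cat (difference 1.74, SE 0.353, limma adjusted p = 0.0345). The further LRP2 probe set differed by 0.55, and 0 of the 2 passed when every probe set was tested (lowest limma adjusted p = 0.0546). In DLD-1α-Cat LRP2 averaged 4.52, beside the A2M values that cannot be told from background, so its difference depends on the array's floor. The call was lost with the replicate number as a block (limma adjusted p = 0.064). Of the 6 fits without one array it passed in 2, those without replicate 1 or 3 of DLD-1α-Cat (differences 1.34 and 2.10, limma adjusted p = 0.0254 and 0.0308).

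Among 32 measured proteases that A2M can trap or that belong to the same classes, 1 rose and 0 fell, and the median difference was -0.018. KLK7, a kallikrein that degrades desmosomes in the skin, was at 11.21, 11.05 and 11.38 in DLD-1Δα-Cat, against 6.08, 6.08 and 6.45 in DLD-1α-Cat (difference 5.01, SE 0.143, limma adjusted p = 6.80e-06). KLK7 was already known as one of the largest rises on these arrays when the list was written, so its call is no independent evidence. The prostate kallikrein KLK3 differed by 0.70 (limma adjusted p = 0.0974) and passed with the replicate number as a block (limma adjusted p = 0.0207). Anionic trypsinogen PRSS2 differed by -0.46 (limma adjusted p = 0.116) and urokinase PLAU by -0.50 (limma adjusted p = 0.111). The share called higher, 3.12%, was near the 3.84% of all genes. Only 7 of the 32 proteases lay above the median gene level of 7.82.

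Of 13 measured growth factors and cytokines that A2M is reported to bind, 3 rose (23.1%) and 1 fell (7.69%), with a median of -0.15. Over all genes 3.84% rose and 1.67% fell. The platelet-derived growth factor chain PDGFA read 9.86, 9.87 and 10.04 in DLD-1Δα-Cat, against 8.72, 9.07 and 8.79 in DLD-1α-Cat (difference 1.06, SE 0.123, limma adjusted p = 0.0043). The further PDGFA probe set differed by only 0.093, and the mean of the 2 differed by 0.58 (limma adjusted p = 0.00912). BDNF, a neurotrophin, rose by 0.58 (limma adjusted p = 0.041), a call that was lost with the replicate number as a block (limma adjusted p = 0.058). VEGFA, which drives vessel growth, rose by 0.53 (limma adjusted p = 0.0307). When every probe set was tested, 0 of the 2 of BDNF and 0 of the 4 of VEGFA passed (lowest limma adjusted p = 0.0725 and 0.0529). With the mean of probe sets VEGFA passed (limma adjusted p = 0.0195) and BDNF did not (limma adjusted p = 0.0888). FGF2, a fibroblast growth factor, read 8.47, 8.74 and 8.82 in DLD-1Δα-Cat, against 9.25, 9.59 and 9.55 in DLD-1α-Cat (difference -0.79, SE 0.141, limma adjusted p = 0.0222). PDGFA passed in 6 of the 6 fits without one array and VEGFA in 0 (limma adjusted p from 0.0529 to 0.129). FGF2 passed only without replicate 1 or 2 of DLD-1α-Cat (limma adjusted p = 0.0179 and 0.0497) and BDNF only without replicate 2 of DLD-1α-Cat (limma adjusted p = 0.0333).

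Complement genes other than C3 and C5 gave 1 rise and 0 falls among 33 measured, a share of 3.03% higher against 3.84% of all genes, with a median of -0.092. Only 8 of the 33 lay above the median gene level of 7.82. C1R, a protease of the first complement component, rose: it read 8.18, 8.54 and 8.65 in DLD-1Δα-Cat, against 7.0, 7.43 and 7.36 in DLD-1α-Cat (difference 1.2, SE 0.166, limma adjusted p = 0.00875). It also lies on chromosome 12, outside the neighbours listed above. The complement regulator CD55 differed by 0.65 (limma adjusted p = 0.0613) and the receptor C5AR1 by 1.22 (limma adjusted p = 0.16). Both passed with the replicate number as a block, at limma adjusted p = 0.0318 and 0.0469, which made 3 calls in this list. Clusterin (CLU), an inhibitor of the terminal complex, differed by -0.35 (limma adjusted p = 0.0629).

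In liver, A2M of the rat is a classic acute-phase gene driven by interleukin 6 and STAT3, so a list of acute-phase genes and this pathway was read. Of 32 measured genes 2 rose (6.25%, against 3.84% of all genes) and 1 fell (3.12%, against 1.67%), and the median was 0.020. LCN2, an iron-binding protein, read 10.24, 11.05 and 11.03 in DLD-1Δα-Cat, against 8.56, 8.31 and 8.94 in DLD-1α-Cat (difference 2.17, SE 0.253, limma adjusted p = 0.00446). SERPINA1, the elastase inhibitor α1-antitrypsin, read 11.89, 12.57 and 11.82 in DLD-1Δα-Cat, against 10.32, 10.56 and 10.09 in DLD-1α-Cat (difference 1.77, SE 0.219, limma adjusted p = 0.00571). Of its 4 probe sets, 3 were called higher when every probe set was tested.

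The leucine-rich glycoprotein LRG1 fell by 1.19 on the log2 scale (limma adjusted p = 0.0208), with 6.72, 6.87 and 7.49 in DLD-1Δα-Cat, against 8.06, 8.19 and 8.40 in DLD-1α-Cat. LRG1 did not pass without replicate 1 or 2 of DLD-1Δα-Cat (limma adjusted p = 0.0586 and 0.0837) or without replicate 3 of DLD-1α-Cat (limma adjusted p = 0.0963). The pathway's own genes did not pass: IL6 differed by -0.28 (limma adjusted p = 0.255), its receptor IL6R by 0.70 (limma adjusted p = 0.112), STAT3 by 0.042 (limma adjusted p = 0.85) and the feedback inhibitor SOCS3 by -0.15 (limma adjusted p = 0.603).

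For the TGF-β pathway that CD109 binds into, 1 of 16 measured genes rose and 1 fell (6.25% each, against 3.84% and 1.67% of all genes), with a median of 0.029. The pseudoreceptor BAMBI rose by 0.49 (SE 0.0963, limma adjusted p = 0.0315) and the receptor TGFBR2 fell by 0.48 on the log2 scale (SE 0.098, limma adjusted p = 0.0345). In the fits without one array BAMBI passed in 0 of 6 (limma adjusted p from 0.0564 to 0.101), and TGFBR2 passed in 1, that without replicate 1 of DLD-1α-Cat (limma adjusted p = 0.0473). The ligand TGFB1 differed by -0.17 (limma adjusted p = 0.351).

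**Figure D3:**
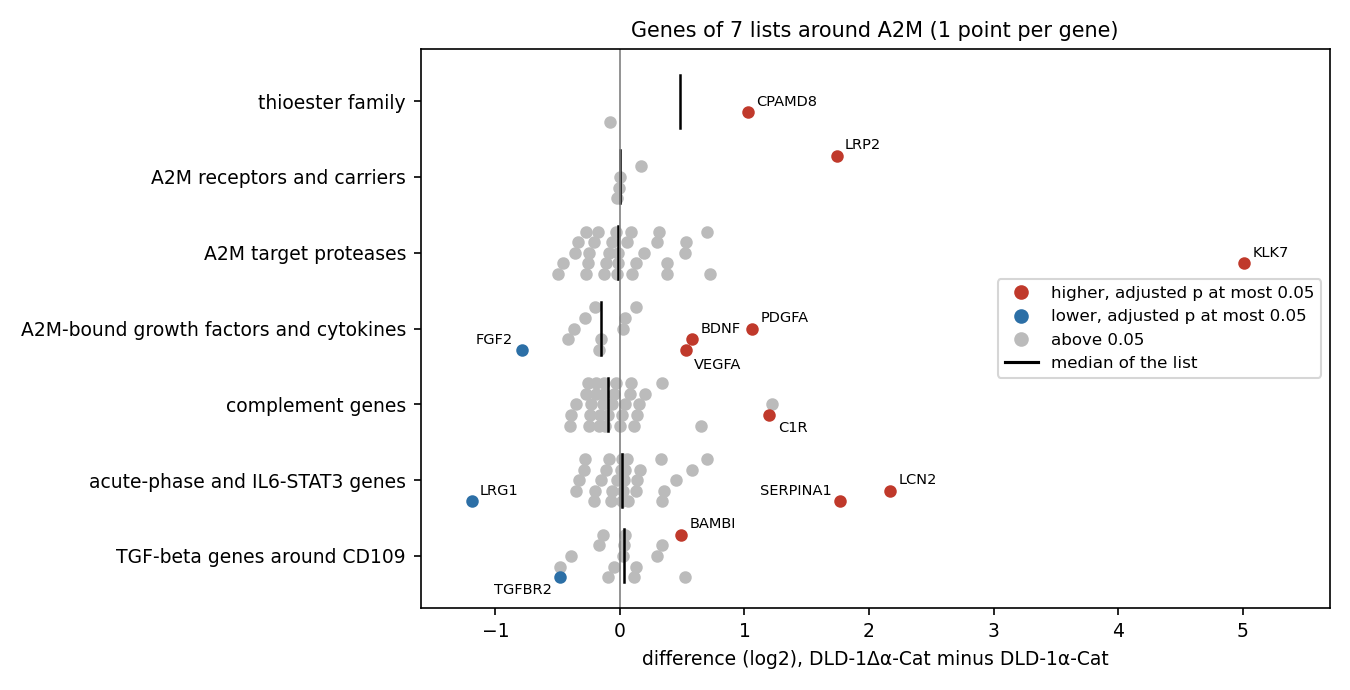
Difference between the subclones (log2, DLD-1Δα-Cat minus DLD-1α-Cat) for each measured gene of 7 lists, with the list's median as a black line, genes past the adjusted threshold in red (higher) or blue (lower) and the rest in grey. The medians lie between -0.15 and 0.48, and KLK7 (5.01) lies far to the right of the other genes.

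The genes most like A2M over the 6 arrays were found by the Euclidean distance between profiles centred on their own mean. They were the intestinal keratin KRT20 (distance 0.50), the calcitonin gene CALCA (0.535), KLK7 (0.753), the reticulon RTN1 (0.835) and the zinc finger gene ZNF432 (0.908). Their differences lay between 4.41 and 5.02, against 4.98 for A2M. In DLD-1α-Cat, RTN1 averaged 3.56 and ZNF432 3.51, below the 4.54 of A2M, so their differences too depend on the array's floor. The differences of the 4 CALCA probe sets ran from 0.32 to 5.02. Those of the 2 RTN1 probe sets ran from 2.89 to 4.41. RefSeq places CALCA, KRT20 and RTN1 on chromosomes 11, 17 and 14 and KLK7 and ZNF432 on 19. A2M and these genes were near each other mainly through the step between the subclones, since the spread within a subclone is small beside it. KLK7 is therefore found both in the protease list and here.

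**Figure D4:**
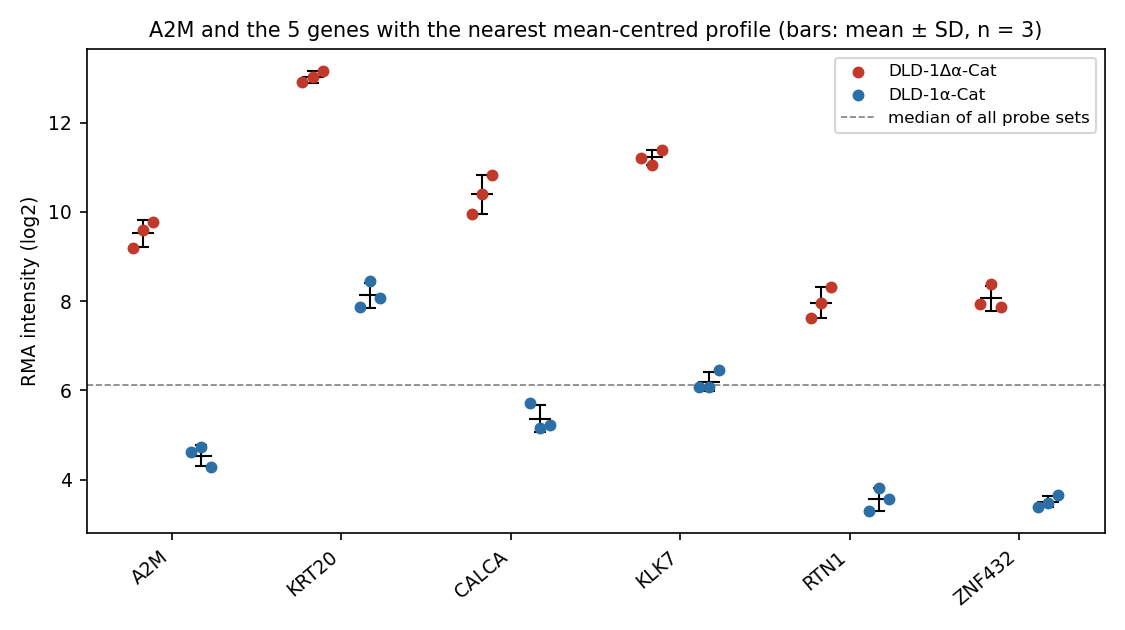
RMA intensity (log2) of A2M and the 5 genes with the nearest mean-centred profile, on the 3 DLD-1Δα-Cat arrays (left of each pair, red) and the 3 DLD-1α-Cat arrays (right, blue), with mean ± SD as bars and the median of all probe sets (6.12) as a dashed line. In each gene all DLD-1Δα-Cat arrays lie at least 4 log2 units above the mean of DLD-1α-Cat.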

How the data were processed

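Biotin-labelled RNA of 6 samples was hybridised to 1 Affymetrix array each. The deposited values are log2 intensities that the authors made with RMA and Expression Console of Affymetrix, as the submitters' processing notes name them, without versions. RMA brings the arrays to one distribution, so it would hide a shift shared by all RNA. Groups and replicate numbers came from the sample titles. From the 54675 probe sets 62 controls were left out. The platform annotation gave 1 symbol for 41091, several for 1801 and none for 11721. Each gene was read from its brightest probe set by the mean of all 6 arrays.

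The test of genes was limma's (version 3.58.1 under R 4.3.3; lmFit, eBayes, two-sided, Benjamini-Hochberg over all genes, threshold 0.05), and all 54613 probe sets in a second fit. The scripts were tested on simulated data. Members, lists and tests were chosen with earlier results of these data known. Named were the members, CTNNA1, in each list all passing genes up to 4, the passing neighbours of A2M and its nearest on each side, and the 5 genes with the nearest profile. A further 18 genes were named after their values were seen. For arrays that share a number, the deviations from the group mean correlated at 0.225, 0.376 and 0.122, each above 0.1, so the number was added as a block in an alternative fit. The main fit has no block, and no label states a pairing.

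Alternatives were quantile normalization, centring, leaving out genes below the median of all probe sets, averaging a gene's probe sets, fitting every probe set, trend and robust estimation, no moderation, array weights, the replicate block and leaving out each array. Promoter windows came from RefSeq (GRCh38.p14). Sequences of probes and proteins were not used here.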

Additional observations from a re-analysis of the deposited data

How the results depend on the processing

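A2M lay between 4.85 and 5.15 under all alternatives except the mean of its probe sets (2.39). Without moderation, 67 genes passed as higher and 48 as lower, against 760 and 331. Then 1 of the 6 genes (A2M) and 1 of the 10 probe sets passed, and 0 genes passed in the thioester, receptor, growth factor, acute-phase and TGF-β lists and beside A2M. In the complement list C1R no longer passed (unmoderated t-test, Benjamini-Hochberg adjusted p = 0.106) and CLU did (unmoderated t-test, Benjamini-Hochberg adjusted p = 0.0315). Trend and robust estimation gave 1150 higher and 564 lower genes, 2 proteases and 3 complement genes. Array weights gave 549 lower genes, 2 proteases and 4 complement genes. With every probe set fitted, 196 genes were lower, and 0 receptors, 2 growth factors and 0 TGF-β genes passed. Leaving out dim genes removed CD109 and LINC00612 and left A2M as the 1 gene and 1 probe set that passed. A2M stayed above that limit only through DLD-1Δα-Cat (9.52, against 4.54 in DLD-1α-Cat), so this says nothing of its stability. The same filter gave 0 receptors and 3 complement genes. The mean of probe sets gave 2 complement genes and 1 TGF-β gene. With the replicate number as a block, 0 receptors, 2 proteases and 3 complement genes passed, and the other counts stayed within 1.5 times.

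Leaving out one array gave 323 to 854 higher and 116 to 348 lower genes, 2 to 3 of the 6 genes and 1 to 3 of the 10 probe sets. By list it gave 0 to 1 receptors, 1 to 2 proteases, 1 to 3 growth factors, 1 to 2 complement genes, 2 to 4 acute-phase genes, 0 to 2 TGF-β genes and 0 to 2 genes beside A2M. Signs turned only in differences that did not pass: PZP with array weights (0.10), LRPAP1 with the mean of probe sets (0.19) and HSPA5 with centring (-0.0063) or array weights (-0.011). Without one array PZP ranged from -0.18 to 0.17, LRP1 from -0.070 to 0.073, LRPAP1 from -0.059 to 0.080, HSPA5 from -0.071 to 0.10 and STAT3 from -0.041 to 0.090. The causes were not tested. A2ML1, PZP and the DLD-1α-Cat values of A2M, LRP2, LINC00612, RTN1 and ZNF432 lie near the array's floor, where smaller amounts of RNA could not be told apart.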
